A study of Mus musculus with 36 samples.

Results

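The values of 4 genes of the mouse heart were followed across all 36 libraries of a myotonic dystrophy type 1 heart model: Cited1, Cited2 and Cited4, which belong to one family, and Vxn, which encodes vexin. They are 4 of the 55291 gene symbols in the deposited tables, and all 4 were among the 19231 genes that passed the filter on low counts. Cited1 and Vxn were chosen by their readout in these data, as genes with a strong fall in mice that never received dox (–dox) against mice kept on it (+dox). Every difference of these 2 genes that uses libraries of those 2 cohorts is therefore given as a description, with no test. Mice whose dox was withdrawn (+/–dox) gave libraries that were not part of that contrast, and tests of the 2 genes use those libraries and the ones with an MBNL vector. The +/–dox mice also lack the repeat RNA, so a low level of the 2 genes in them is not read as a result. Cited2 and Cited4 were taken as the relatives of Cited1, whatever their values.

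CITED proteins are small nuclear co-regulators of transcription. They have no DNA-binding domain of their own and act by binding the related acetyltransferases CBP and p300, which they share with many transcription factors. CITED2 competes with hypoxia-inducible factors for this binding and is needed in the mouse embryo for heart septation and for left-right patterning. CITED1 is best known from kidney progenitors and pigment cells, and CITED4 from the growth of the heart with exercise. Vexin is known as a promoter of neuronal differentiation, and none of these roles was measured here.

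All mice were CUG960 bitransgenics (TREDT960I Hom / MHCrtTA Hem), in which an rtTA driver under the cardiomyocyte promoter alpha-MHC switches on, with doxycycline (dox), an RNA that holds 960 interrupted CUG repeats in a human DMPK context. Such repeat RNA binds and depletes the MBNL family of splicing regulators. The +dox cohort received dox from postnatal day 1, the –dox cohort never received it, and in the +/–dox cohort it was withdrawn at 9 weeks. The other 3 cohorts stayed on dox and were given AAV9-3XFLAG-MBNL1, AAV9-3XMYC-MBNL2 or both at 9 weeks, with human MBNL cDNAs under the cardiomyocyte promoter TNNT2, so that the vector and the MBNL protein cannot be told apart in comparisons with uninjected cohorts. Every mouse carried both transgenes, so the driver is common to all groups while dox itself differs between them. Left ventricle and atria were taken at 21 weeks with 3 libraries per tissue and cohort, which makes 12 groups. Levels are given as CPM, which scales counts to a common library size, with library sizes adjusted by the TMM method, and a gene was called when edgeR's quasi-likelihood test gave a Benjamini-Hochberg adjusted p below 0.05 and the fold change reached 1.5.

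The libraries held 55031987 to 97091184 expected counts. Replicate 1 of the ventricular MBNL1 cohort stood apart, with 16872 genes that had a count against 20537 to 23975 in the others. Summed atrial cardiomyocyte markers (Nppa, Myl7, Myl4, Sln, Bmp10 and Tbx5) reached 15400 to 25800 CPM in atria and 91.1 to 599 CPM in ventricle, and ventricular cardiomyocyte markers (Myl2, Myl3, Irx4, Myh7 and Hey2) 920 to 1310 CPM in atria and 10700 to 14500 CPM in ventricle, the order the tissue labels give. Library numbers fell into 2 sets, with names that begin with 53 (20 libraries) or 56 (16 libraries), and the second set holds replicate 3 of 5 cohorts and all of the MBNL1+MBNL2 cohort.

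Cited1 lies on the minus strand of chromosome X (102247381 to 102252181, GRCm38), Cited2 on the plus strand of chromosome 10 (17723218 to 17725674), Cited4 on the plus strand of chromosome 4 (120666572 to 120667820) and Vxn on the plus strand of chromosome 1 (9601199 to 9627143). Promoter sequence is shown so that the starts of the 3 relatives can be set side by side. The RefSeq promoter table (GRCm38.p6) had entries for Cited1 (3 starts, of which the one at the gene's outer end is shown), Cited2 and Cited4, and each line gives the 250 bases before an annotated start, 5′ to 3′, at chrX:102252182-102252431 on the minus strand, chr10:17722978-17723227 on the plus strand and chr4:120666313-120666562 on the plus strand. Capitals mark every match, on either strand, to the TATA box letters TATAAA and to the core letters of hypoxia-response elements, which are spelled out with their counts after the sequences, together with the AP-1 and CRE letters that were also searched.
Cited1: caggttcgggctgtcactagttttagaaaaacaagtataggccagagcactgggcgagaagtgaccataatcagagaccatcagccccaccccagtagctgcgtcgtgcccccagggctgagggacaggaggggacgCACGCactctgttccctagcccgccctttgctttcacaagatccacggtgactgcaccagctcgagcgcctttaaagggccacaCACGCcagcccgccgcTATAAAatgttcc
Cited2: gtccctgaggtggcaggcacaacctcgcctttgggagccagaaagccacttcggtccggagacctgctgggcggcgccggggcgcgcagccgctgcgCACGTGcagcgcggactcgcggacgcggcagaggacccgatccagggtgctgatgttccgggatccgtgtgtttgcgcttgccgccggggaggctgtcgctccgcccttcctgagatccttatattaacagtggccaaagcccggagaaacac
Cited4: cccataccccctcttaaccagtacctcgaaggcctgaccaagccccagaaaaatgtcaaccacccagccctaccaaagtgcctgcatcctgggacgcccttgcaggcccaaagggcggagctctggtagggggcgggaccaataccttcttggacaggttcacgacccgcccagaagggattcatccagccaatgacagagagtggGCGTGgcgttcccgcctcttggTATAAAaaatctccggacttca
The TATA box letters begin 13 bases before the Cited1 start and 22 bases before the Cited4 start, and the Cited2 window has no match to them. Of all 32851 promoters in the table, 12.4% hold TATAAA in a window of this length. One core of hypoxia-response elements is in the Cited2 window, inside a palindrome that also makes it an E-box. This core, written ACGTG, is held by 16.6% of promoters and also lies 108 bases before the second Cited1 start, so it does not set Cited2 apart from Cited1. The other core lies in the Cited4 window and, on the opposite strand, at 2 places in the Cited1 window. Written GCGTG, it is held by 28.2% of promoters. No AP-1 match was in the 3 windows. Its letters TGANTCA are held by 6.75% of promoters. No CRE match was in the windows either, with letters TGACGTCA held by 1.55% of promoters. The E-box letters CANNTG overlap the first core, are held by 66.2% of promoters and are not in capitals by themselves. GC content was 58.0% for Cited1, 66.8% for Cited2 and 58.0% for Cited4, against a median of 52.4% over all promoters. These matches are a description of letters and show no binding.

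Cited1 was high in +dox atria, low where dox was absent or withdrawn, and between the 2 under each MBNL vector. In atria the 3 +dox libraries held 9.45, 10.7 and 7.97 CPM, the 3 –dox libraries 0.491, 0.694 and 1.52 CPM and the 3 +/–dox libraries 1.23, 1.04 and 1.08 CPM. The –dox and +/–dox libraries overlapped each other, and every one of them was below every +dox library. The mean was 9.59% of the +dox mean in –dox atria and 11.9% in +/–dox atria, of which the first chose the gene and neither was tested. Across all genes, 5.23% were called in atria for –dox against +dox and 3.99% for +/–dox against +dox, and nothing is read from this for Cited1.

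Atrial Cited1 was higher after MBNL delivery than after withdrawal of dox. The MBNL1 libraries held 5.94, 5.21 and 4.15 CPM, the MBNL2 libraries 7.52, 8.35 and 6.63 CPM and the MBNL1+MBNL2 libraries 3.50, 5.08 and 4.23 CPM. All 9 libraries were above all 3 +/–dox libraries, and the MBNL2 libraries overlapped those of the +dox cohort while the others lay below it. These means were 54.3%, 79.9% and 45.5% of the +dox mean. Against +/–dox, Cited1 was called higher in all 3 cohorts by edgeR, with a log2 fold change of 2.19 ± 0.39 (SE, adjusted p = 0.000864) for MBNL1, 2.75 ± 0.40 (adjusted p = 2.852e-05) for MBNL2 and 1.93 ± 0.39 (adjusted p = 0.00226) for both. These contrasts called 1.21%, 3.24% and 1.71% of all genes. Cited1 was chosen for a low level without the repeat RNA, which the +/–dox mice also lack. Here and in ventricle, the tests therefore ask only whether a vector brought Cited1 to its level after withdrawal. Within the libraries numbered 53, atrial Cited1 was 4.90 times the +/–dox level for MBNL1 and 6.98 times for MBNL2, and within those numbered 56 it was 3.85, 6.16 and, for both vectors, 3.96 times.

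The 3 vector cohorts were not separated from each other by the test. MBNL2 libraries lay above all MBNL1 and all MBNL1+MBNL2 libraries in atria, a comparison added after these values were seen, and the largest difference, MBNL1+MBNL2 against MBNL2, was -0.81 on the log2 scale (edgeR adjusted p = 0.915). Few genes at all were called between vector cohorts: in atria 0.0052% for MBNL1 against MBNL2, 0.0104% for both against MBNL2 and 0% for both against MBNL1, and in ventricle 0.0156%, 0.026% and 0%. For both vectors against MBNL1, edgeR called 0 genes with 454 in atria and 1692 in ventricle at an unadjusted p under 0.05, and DESeq2 called 0 and 9.

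Ventricular Cited1 followed the same order at a lower level. The +dox libraries held 1.74, 1.87 and 1.54 CPM, the –dox libraries 0.119, 0.119 and 0.170 CPM and the +/–dox libraries 0.182, 0.132 and 0.309 CPM, the last from only 12, 7 and 19 expected counts. The –dox mean was 7.93% and the +/–dox mean 12.1% of the +dox mean. For all genes, 7.6% were called for –dox against +dox and 6.6% for +/–dox against +dox in ventricle.

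With a vector, ventricular Cited1 lay below the +dox libraries. MBNL1 libraries held 0.684, 0.569 and 0.556 CPM, MBNL2 libraries 0.406, 0.802 and 0.883 CPM, and MBNL1+MBNL2 libraries 0.0856, 1.10 and 0.514 CPM. The last group spread widely, over 5, 60 and 34 expected counts, and it overlapped the +/–dox group whereas MBNL1 and MBNL2 did not. The means were 35.1%, 40.6% and 33.0% of the +dox mean.

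In edgeR, MBNL2 passed the test against +/–dox in ventricle, with a log2 fold change of 1.72 ± 0.49 (SE, edgeR adjusted p = 0.0352). The differences for MBNL1 (1.52 ± 0.50, edgeR adjusted p = 0.0991) and for both vectors (1.41 ± 0.50, edgeR adjusted p = 0.163) did not pass in edgeR and were called by DESeq2 (1.53, adjusted p = 0.0189, and 1.44, adjusted p = 0.035). The background was 0.868% of genes called for MBNL1, 1.57% for MBNL2 and 0.53% for both. The MBNL2 call was lost on leaving out MBNL2 replicate 2 or 3 or +/–dox replicate 1 or 2 (log2 fold change 1.61, 1.51, 1.62 and 1.50; adjusted p 0.103 to 0.162), and without replicate 1 of the MBNL1+MBNL2 cohort the difference for both vectors was 1.92 (edgeR adjusted p = 0.004755), whereas without its replicate 2 it was 0.54 (edgeR adjusted p = 0.777). Within the libraries numbered 53, ventricular Cited1 was 3.98 times the +/–dox level for MBNL1 and 3.84 times for MBNL2, and within those numbered 56 it was 1.80, 2.86 and, for both vectors, 1.84 times. Tested directly, a tissue difference in the change against +/–dox was called for no vector. The change was larger in atria by 0.67 ± 0.64 for MBNL1, 1.03 ± 0.64 for MBNL2 and 0.52 ± 0.65 for both on the log2 scale (SE). The edgeR adjusted p was 0.892, 0.767 and 0.918, in contrasts that called 0.0104%, 0.052% and 0.078% of genes. With SE of this size, a missed call does not show equal changes.

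**Figure D1:**
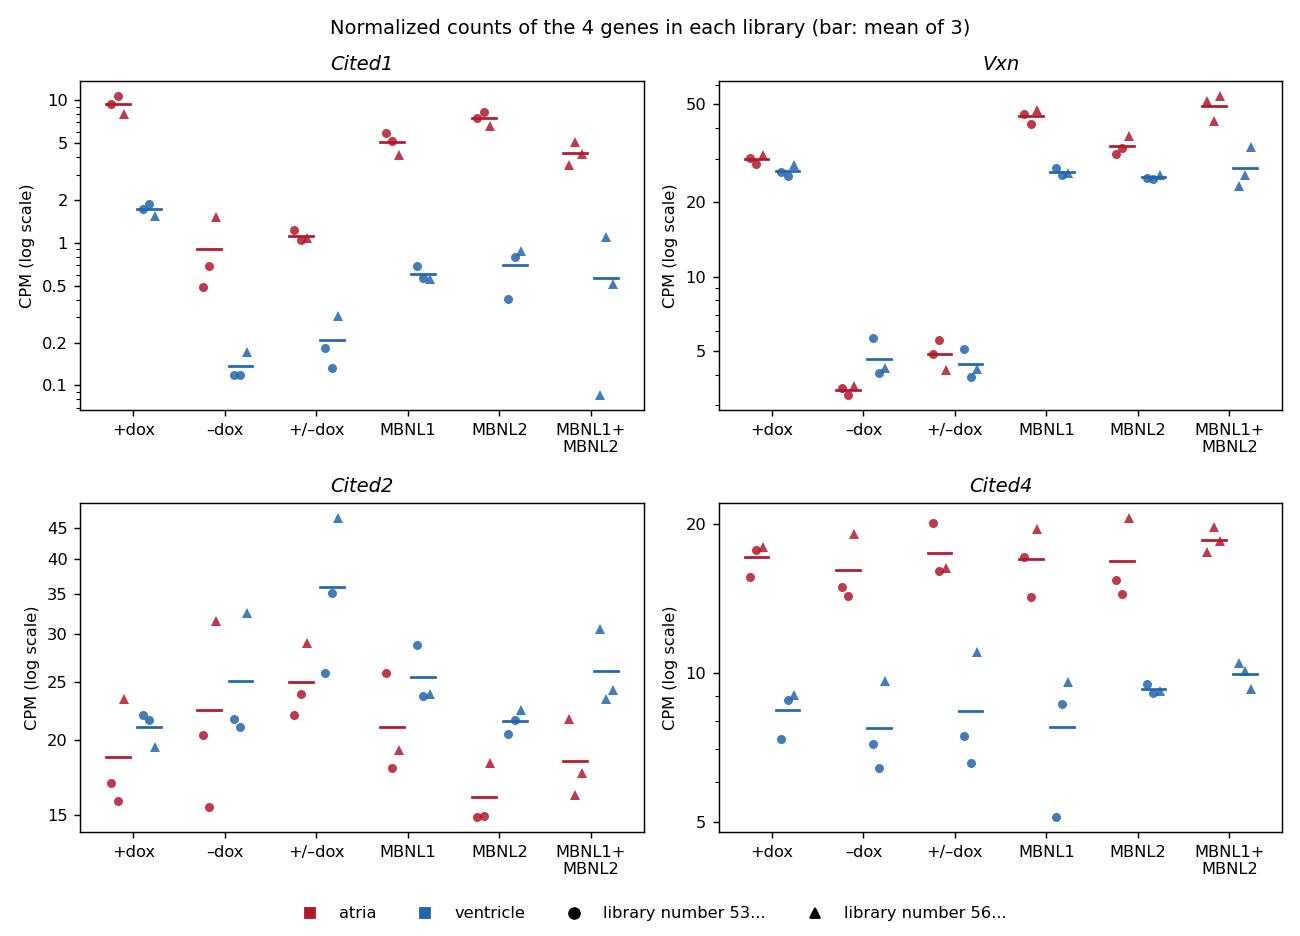
CPM (log axis) of Cited1, Cited2, Cited4 and Vxn in each of the 36 libraries, by cohort, with atria in red, ventricle in blue, circles for libraries numbered 53, triangles for those numbered 56 and a line at each group's mean of 3 libraries. Cited1 and Vxn were low in –dox and +/–dox in both tissues, while Cited2 and Cited4 libraries of different cohorts overlapped for the most part.

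Vxn was low without the repeat RNA, as Cited1 was, and under the MBNL vectors it stood near or above its +dox level. Atrial +dox libraries held 30.2, 28.7 and 31.2 CPM, –dox libraries 3.51, 3.30 and 3.58 CPM and +/–dox libraries 4.84, 5.54 and 4.18 CPM. The 3 groups did not overlap, and the –dox mean was 11.5% and the +/–dox mean 16.1% of the +dox mean. In atria with a vector, MBNL1 libraries held 45.6, 41.6 and 47.3 CPM, MBNL2 libraries 31.5, 33.1 and 37.2 CPM and MBNL1+MBNL2 libraries 51.4, 42.9 and 54.1 CPM. Every one of these 9 was above every +dox library, at group means of 149%, 113% and 165% of the +dox mean. These values against +dox are a description, and 0.13%, 0.0052% and 0.26% of all genes were called in these 3 contrasts.

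In ventricle, Vxn libraries of the +dox and vector cohorts lay together. The +dox libraries held 26.6, 25.7 and 28.3 CPM, the –dox libraries 5.61, 4.06 and 4.24 CPM and the +/–dox libraries 5.07, 3.91 and 4.21 CPM. MBNL1 libraries held 27.5, 25.9 and 26.3 CPM, MBNL2 libraries 25.2, 24.8 and 25.9 CPM and MBNL1+MBNL2 libraries 23.3, 25.8 and 33.5 CPM. The vector means were 98.9%, 94.2% and 102% of the +dox mean, beside 17.3% for –dox and 16.4% for +/–dox. Ventricular contrasts of the vector cohorts with +dox called 2.66%, 1.52% and 2.65% of all genes.

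Against +/–dox, Vxn was called higher with every vector in both tissues. Vxn was chosen for a low level without the repeat RNA, which the +/–dox mice also lack. These tests therefore ask only whether a vector brought Vxn to its level after withdrawal. In atria the log2 fold change was 3.21 for MBNL1 (edgeR adjusted p = 7.203e-18), 2.81 for MBNL2 (adjusted p = 2.496e-16) and 3.35 for both (adjusted p = 2.32e-18). In ventricle it was 2.59, 2.52 and 2.64 (edgeR adjusted p = 2.835e-15, 5.948e-15 and 1.702e-15). Without the ventricular MBNL1 library that stood apart, the MBNL1 value was 2.57 for Vxn (edgeR adjusted p = 5.635e-14) and 1.42 for Cited1 (edgeR adjusted p = 0.269). The difference from +/–dox was larger in atria than in ventricle by 0.62 for MBNL1, 0.28 for MBNL2 and 0.71 for both on the log2 scale, and none of these differences of differences passed in edgeR after adjustment (adjusted p = 0.274 for MBNL1, 0.749 for MBNL2 and 0.124 for both). DESeq2 gave 0.70 with an adjusted p of 0.0306 for both vectors. The edgeR fit with same-numbered atria and ventricle paired gave 0.72 with an adjusted p of 0.0328, so this call depends on the fit.

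No difference of Vxn among the atrial vector cohorts was called in the edgeR fit. MBNL1+MBNL2 exceeded MBNL2 by 0.54 on the log2 scale (edgeR adjusted p = 0.109), under the fold cutoff in most alternatives, where the adjusted p ran from 0.00619 to 0.56, and called by limma on log2(TPM + 1) (0.60, adjusted p = 0.0365), and MBNL1 exceeded MBNL2 by 0.40 (edgeR adjusted p = 0.502). All MBNL1 and all MBNL1+MBNL2 libraries were above all MBNL2 libraries. Cited1 had the opposite order in these libraries, with MBNL2 at the top, and no test of that contrast between the 2 genes was made.

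**Figure D2:**
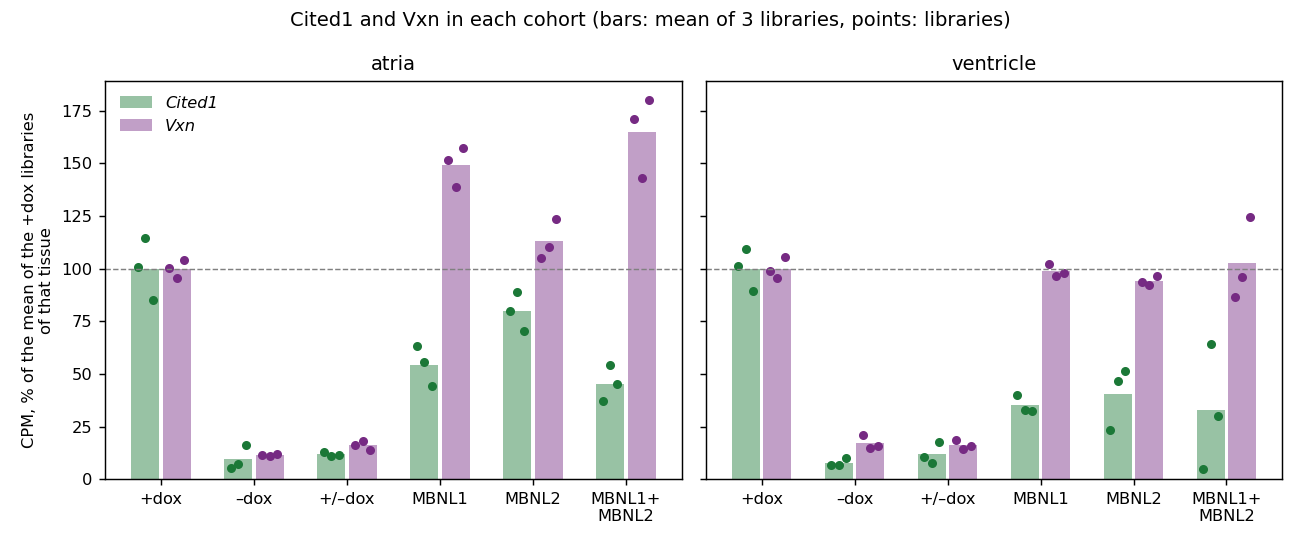
Level of Cited1 and Vxn in each cohort as a percentage of the mean CPM of the +dox cohort of the same tissue, with bars for the means, points for the 3 libraries, green for Cited1, purple for Vxn and a dashed line at the +dox mean. Vxn with a vector was at 94.2 to 165% in the group means and Cited1 at 33.0 to 79.9%, whereas –dox and +/–dox means of both genes were at 7.93 to 17.3%.

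**Figure D3:**
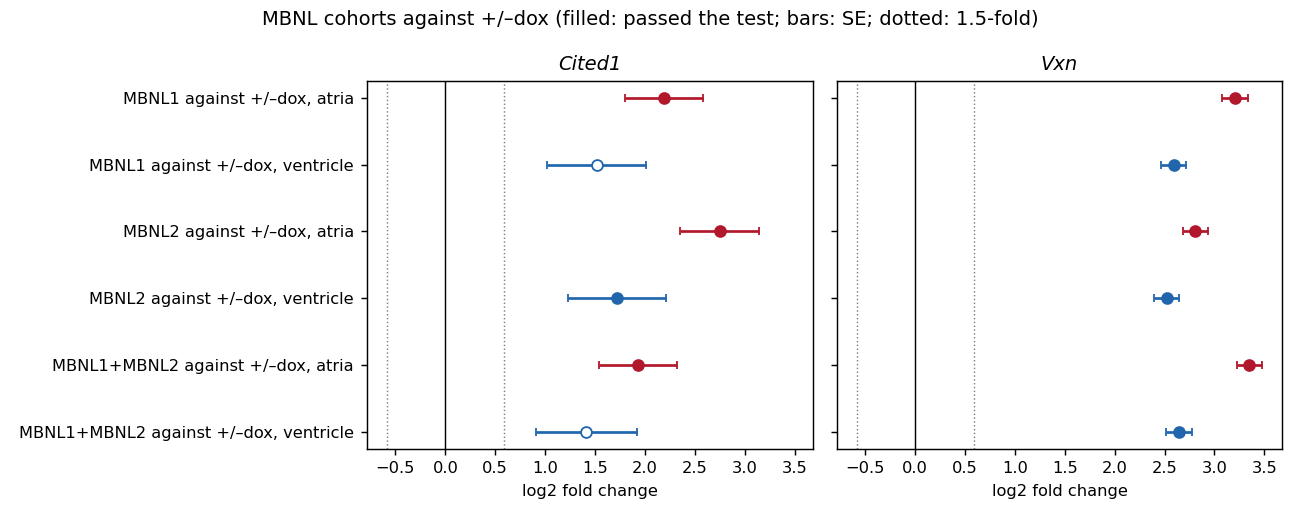
Log2 fold change of each MBNL cohort over the +/–dox cohort for Cited1 and Vxn in atria and ventricle, in red for atria and blue for ventricle, with bars of 1 SE from the edgeR fit, filled points for differences that passed the test and dotted lines at the fold cutoff. Vxn was 2.52 to 3.35 above +/–dox throughout, and Cited1 was 1.93 to 2.75 above in atria and 1.41 to 1.72 in ventricle.

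An antisense gene bears on the reading of Vxn. The long non-coding gene 2610203C22Rik lies on the minus strand of chromosome 1 (9560832 to 9631175) and covers all 25945 bases of Vxn, with 452 exonic bases shared. The library kit keeps strand, and whether the counting used it is not given in the sources used here, so reads of the 2 genes may not be told apart over the shared bases. Its level was low, at 0.361 to 0.859 CPM in atria and 0.770 to 2.11 CPM in ventricle. It did not fall with Vxn: its mean was 0.407 CPM in +dox atria and 0.624 CPM in –dox atria.

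Cited2, which restrains hypoxia-inducible factors, was detected in every library and was called in 1 of the 4 comparisons of –dox or +/–dox with +dox. The ventricular +dox libraries held 21.98, 21.6 and 19.5 CPM and the +/–dox libraries 25.8, 35.1 and 46.7 CPM, and the 2 groups did not overlap. The log2 fold change was 0.77 ± 0.22 (SE, edgeR adjusted p = 0.013), upward where Cited1 and Vxn were down. The call was lost without +/–dox replicate 3 (0.53, edgeR adjusted p = 0.119) and without +dox replicate 3 (0.72, edgeR adjusted p = 0.0537). The ratio of +/–dox to +dox was 1.40 within the libraries numbered 53 and 2.40 within those numbered 56.

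The other Cited2 comparisons with +dox did not pass. In ventricle –dox, the mean was 25.1 ± 6.43 CPM (SD, n = 3). In atria the means were 18.8 ± 4.05 CPM with dox, 22.5 ± 8.17 CPM without and 24.9 ± 3.63 CPM after withdrawal (SD, n = 3 each), and the libraries of these cohorts overlapped. Log2 fold changes against +dox in edgeR were 0.26 for atrial –dox (adjusted p = 0.479), 0.41 for atrial +/–dox (adjusted p = 0.251) and 0.25 for ventricular –dox (adjusted p = 0.464). The change did not differ between tissues past the threshold for either comparison, in contrasts that called 0.764% of genes for –dox and 0.489% for +/–dox.

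With a vector, Cited2 was not called against +dox in either tissue. Against +/–dox, a comparison added after values were seen, ventricular MBNL2 differed by -0.74 on the log2 scale (edgeR adjusted p = 0.0491), a call lost on leaving out any 1 of the 6 libraries but +/–dox replicate 1 (edgeR adjusted p of up to 0.274, with a difference of -0.50, without +/–dox replicate 3), and atrial MBNL2 was at -0.63 (edgeR adjusted p = 0.0661). The MBNL2 libraries were below all +/–dox libraries in atria.

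Cited4, known from exercise growth of the heart, was called in no comparison of a cohort with +dox. Log2 fold changes against +dox ran from -0.12 to 0.24 over both tissues and all 5 cohorts, with edgeR adjusted p of 0.487 or more, and ventricular MBNL1 was at 0.12 without its replicate 1. Atrial means ran from 16.1 CPM in –dox to 18.6 CPM in MBNL1+MBNL2, and ventricular means from 7.74 to 9.94 CPM. A p that misses the threshold does not show that the levels were equal.

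**Figure D4:**
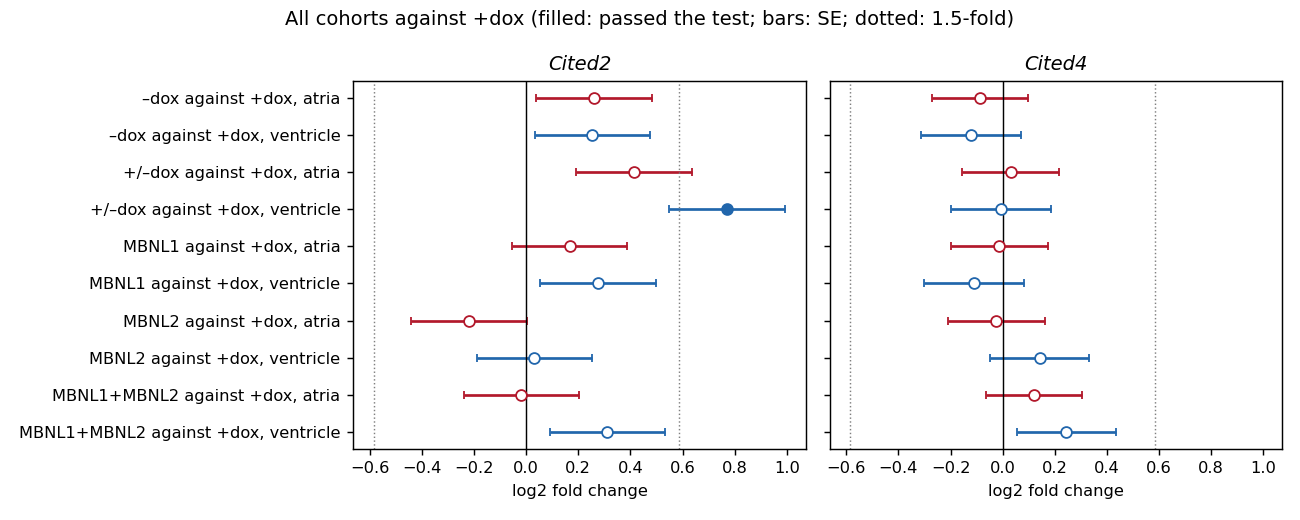
Log2 fold change of the cohorts over +dox for Cited2 and Cited4 in atria and ventricle, in red for atria and blue for ventricle, with bars of 1 SE from the edgeR fit, filled points for differences that passed the test and dotted lines at the fold cutoff. Ventricular Cited2 in +/–dox was at 0.77, and the Cited4 values lay between -0.12 and 0.24.

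Atria and ventricle of a cohort came from the same mice. In the +/–dox cohort, Cited1 was higher in atria by 2.40 ± 0.48 on the log2 scale (SE, edgeR adjusted p = 0.000125) and Cited4 by 1.06 ± 0.19 (edgeR adjusted p = 3.129e-05). Cited2 was at -0.52 (edgeR adjusted p = 0.059) and Vxn at 0.14 (edgeR adjusted p = 0.415), and neither passed in this unpaired fit. With same-numbered atria and ventricle paired, Cited2 was at -0.50 (edgeR adjusted p = 0.000858), under the fold cutoff, and Vxn at 0.14 (edgeR adjusted p = 0.335). Over all alternatives the Cited2 value ran from -0.71 to -0.002. This contrast called 24.2% of all genes, so a tissue difference was common. In the vector cohorts, where 25.3% (MBNL1), 21.7% (MBNL2) and 24.1% (both) of genes were called, Cited1 was higher in atria by 3.08, 3.43 and 2.92 and Cited4 by 1.13, 0.86 and 0.90, all of them called. Without the ventricular MBNL1 library that stood apart, the MBNL1 values were 3.18 for Cited1, 0.90 for Cited4 and 0.78 for Vxn, and all were called.

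Vxn was higher in atria in 2 of the vector cohorts. Its atrial excess was 0.75 with MBNL1 (edgeR adjusted p = 2.341e-06) and 0.85 with both vectors (edgeR adjusted p = 3.559e-07), both called. With MBNL2 it was 0.42 (edgeR adjusted p = 0.00355), under the fold cutoff. In +/–dox the difference on counts was 0.14 and not called (edgeR adjusted p = 0.415). By limma on log2(TPM + 0.1) it was 0.60 and called (adjusted p = 0.000275), so this call depends on the measure. Cited2 with MBNL1 also moved up on that measure, from -0.27 on counts to 0.23, neither called. Why the measures differ was not tested, and no atrial excess of Vxn in +/–dox is read from the TPM value.

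Levels per transcript length place the relatives side by side. In +dox atria, Cited4 stood at 27.3 TPM (transcript abundance scaled by length and library), Cited1 at 22.3, Cited2 at 17.5 and Vxn at 16.2 TPM. After withdrawal of dox the order changed, with Cited4 at 26.6, Cited2 at 22.3, Cited1 at 2.54 and Vxn at 2.49 TPM. In +dox ventricle, Cited2 was at 13.4, Vxn at 9.94, Cited4 at 9.23 and Cited1 at 2.85 TPM. After withdrawal in ventricle, the values were 22.9 for Cited2, 1.61 for Vxn, 9.11 for Cited4 and 0.343 TPM for Cited1. Cited1 was thus near its relatives in +dox atria and the lowest of the 3 in every other of these 4 groups.

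Genes with the most similar patterns were named by correlation of log2 CPM among genes with a mean of at least 1 CPM. Over the 12 group means, Pearson r to Cited1 was highest for Slc25a44 (0.992), Copz1 (0.988) and B4galt5 (0.987), and to Vxn for Bad (0.966), Lman2l (0.965) and Gtf2ird2 (0.964). To Cited2 it was highest for Frmd6 (0.979), Phf7 (0.940) and Zfp775 (0.933), and to Cited4 for Vsnl1 (0.994), Csf1r (0.991) and Cacna2d3 (0.990). An r over these means takes in the tissue difference and need not show a shared cohort pattern. Vsnl1 was at 18.4 CPM in +dox and 6.25 in –dox atria, and at most 0.393 CPM in ventricle. Cited4 was at 17.1 and 16.1 CPM in those atrial cohorts. Csf1r (83.1 and 82.6 CPM) and Cacna2d3 (18.2 and 18.6 CPM) differed little between them. Over the 18 atrial libraries, which drop the tissue difference, the top genes were Vdr (0.979), Necap2 (0.965) and Hagh (0.964) for Cited1, and Mrpl54 (0.972), Dlg4 (0.968) and Anxa5 (0.966) for Vxn. For Cited2 they were Pim1 (0.913), Arid5b (0.904) and B3gnt9 (0.896), and for Cited4 Endog (0.885), F8a (0.874) and Chchd10 (0.817). The groups and libraries are shared by all of these genes, and the values describe likeness with no test.

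Vdr, the vitamin D receptor, had its cohort means in the same order as Cited1 in atria. Its means were 68.9 CPM in +dox, 11.9 in –dox, 15.9 in +/–dox, 41.9 with MBNL1, 55.8 with MBNL2 and 33.2 CPM with both. Cited1 and Vxn had r = 0.655 over group means and 0.878 over atrial libraries.

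Of 19 listed partners of the CITED proteins, 15 were tested. In atria edgeR and DESeq2 called 0 of them for –dox or +/–dox against +dox, where edgeR called 5.23% and 3.99% of all genes. At an unadjusted edgeR p under 0.05 there were 6 and 3 of these partners, beside 5568 and 4842 of all 19231 genes. The ventricular counts at that threshold were 7 and 8, beside 6269 and 6367 of all genes. In atria the partners' median log2 fold changes of 0.06 and 0.06 stood beside 0.03 and 0.03 over all genes. In ventricle, Pparg, a fat-cell nuclear receptor, rose in –dox from 6.19 to 10.9 CPM (0.81, edgeR adjusted p = 5.474e-06), and 2 genes were called up in +/–dox, beside 7.6% and 6.6% of all genes called in these contrasts. These were the estrogen receptor gene Esr2, at 0.0433 CPM against 0.00376 in +dox (edgeR adjusted p = 0.0362), and the transcription factor gene Tfap2a, at 0.215 against 0.0315 CPM (edgeR adjusted p = 0.0215), levels of a few counts at most per library in +dox.

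Hypoxia-inducible targets, which CITED2 restrains in textbook accounts, moved both ways. All 16 were tested, and in atria Adm, which encodes the vasodilator adrenomedullin, fell from 90.2 to 54.6 CPM in –dox (-0.72, edgeR adjusted p = 0.0129). In ventricular –dox, Ankrd37 (0.88) and Egln3, an oxygen-sensing prolyl hydroxylase (0.73), rose, and Adm (-0.60) and Pfkfb3, an activator of glycolysis (-1.16), fell. In +/–dox, edgeR and DESeq2 called 0 in both tissues, with 5 in each at an unadjusted edgeR p under 0.05. Over all 19231 genes tested, edgeR called 3.99% in atria and 6.6% in ventricle there. At an unadjusted edgeR p under 0.05 there were 4842 and 6367 genes. For –dox, 5 targets in atria and 9 in ventricle were under that p, beside 5568 and 6269 of all genes. The list medians in –dox were 0.09 in atria and 0.21 in ventricle, against 0.03 and 0.01 over all genes. With 1 of 16 called in atria and 4 of 16 in ventricle, the shares of all genes called in –dox were 5.23% and 7.6%, and nothing particular to these targets is read from the counts.

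Of 13 proneural genes and cell-cycle inhibitors of neuronal differentiation 3 were tested, all of them inhibitors. Cdkn1b rose in atrial +/–dox (0.585, edgeR adjusted p = 9.571e-05), at the fold cutoff itself and not called by DESeq2, and Cdkn1a fell in ventricular +/–dox (-1.34, edgeR adjusted p = 0.0231). These contrasts called 3.99% and 6.6% of all genes. In –dox, edgeR called 0 of the 3 in either tissue. Cdkn1b was at 0.48 in –dox atria (edgeR adjusted p = 0.000774), under the fold cutoff, and Cdkn1a at -0.83 in –dox ventricle (edgeR adjusted p = 0.165). Nothing particular to this list is read from the counts.

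Bulk tissue cannot tell fewer cells of a type from less RNA per cell. Marker lists of 11 cell types were summed per library, and in atria all –dox libraries were above all +dox libraries for 5 of 11 lists and below for 0, with +/–dox at 6 and 0. In ventricle these counts were 1 and 0 for –dox, and 3 and 1 for +/–dox, the one below being melanocyte markers. The lists above +dox in atrial –dox were atrial cardiomyocyte, Schwann cell, mesothelium, endothelium and fibroblast markers. Atrial cardiomyocyte markers summed to 15400 to 17800 CPM in +dox atria and 22200 to 23700 CPM in –dox atria. Nppa weighs most in this sum, with means of 7480 CPM in +dox and 13600 CPM in +/–dox atria. Myl7, Myl4, Sln and Tbx5 were also higher in +/–dox atria, and Bmp10 was lower (1240 against 1470 CPM in +dox). Fibroblast markers summed to 1080 to 1180 CPM in +dox atria and 1410 to 1420 CPM in –dox atria. The share of all genes that separate in this way was not taken, so nothing is read from these counts. The part of the lists in the result was not tested. Schwann cell markers (5 of 5 detected) summed to at most 17.9 CPM in +dox atria and 25.2 to 29.9 CPM in –dox atria, and endothelial markers (4 of 4) to 387 to 410 CPM and 504 to 539 CPM.

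Markers of pigment cells and neurons, where CITED1 and vexin are known, were summed in the same way. Melanocyte markers (6 of 6 detected somewhere) summed to 94.2 to 101 CPM in +dox atria, 86.4 to 95.3 in –dox and 89.2 to 98.4 CPM in +/–dox, and most of each sum came from Mitf (57.4 CPM in +dox and 53.2 in +/–dox) and Mlana (39.5 CPM in both), with Tyr at 0 in 29 and Tyrp1 at 0 in 24 of the 36 libraries. In ventricle the sums were 70.9 to 76.2 CPM in +dox, 65.6 to 74.0 in –dox and 64.8 to 65.8 CPM in +/–dox, the last without overlap with +dox, and Mitf alone was at 70.8 CPM in +dox and 61.5 CPM in +/–dox. The part of these markers in the Cited1 values was not tested. Neuronal markers (7 of 7 detected somewhere) summed to 2.42 to 3.41 CPM in +dox atria, 2.80 to 8.43 in –dox and 3.92 to 5.16 CPM in +/–dox, with Snap25 at 0 in 23 and Th at 0 in 18 libraries.

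Xist, the RNA of the inactive X, split the libraries, and Cited1 is on X. Xist was at 192 to 443 CPM in 10 libraries, replicate 3 of both tissues in the 5 cohorts other than MBNL1+MBNL2, and at 0.226 to 2.20 CPM in the other 26. In those 10 groups of 3, the Xist-high library was the highest for Cited4 in 8, for Cited2 in 7, for Vxn in 6 and for Cited1 in 4, and the lowest for Cited1 in 5. The paper lists a single female among the sequenced mice of each of those 5 cohorts and only males in the MBNL1+MBNL2 cohort. The same 10 libraries carry numbers that begin with 56 while their group mates begin with 53. Within these groups library number, Xist and sex therefore cannot be told apart. The ratios of both vectors to +/–dox within the libraries numbered 56 set Xist-low libraries against an Xist-high one.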

How the data were processed

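Poly(A) RNA of left ventricle and atria was sequenced in 36 libraries. Per the labels, the authors used STAR 2.7.10b for alignment, the mouse build mm10 with GENCODE genes, and RSEM 1.3.1 for quantification. The deposited expected counts per gene were rounded to whole numbers here, and the TPM values, which the authors' tool scaled by transcript length and library, were used for levels between genes. Genes were filtered with filterByExpr (19231 of 55291 kept) and fitted with edgeR 4.0.16 (R 4.3.3) using TMM, 1 mean for each of 12 groups and the robust quasi-likelihood test, with prior count 2 for log2 CPM. Calls needed an adjusted p below 0.05 over all genes tested and a fold change of 1.5. The alternatives were DESeq2 1.42.0, other size factors, no filter, a replicate block, the library number as a term, limma 3.58.1 on log2(TPM + 0.1) or log2(TPM + 1), only the compared libraries, and leaving out each library. The fit was tested on simulated data.

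The genes and lists were chosen with earlier results of these data known. Comparisons between vector cohorts, of Cited2 and Cited4 with +/–dox under a vector, and of tissues in the vector cohorts were added after values were seen. Beside the 4 genes, the text names the called genes of each list with the largest change in –dox against +dox (at most 4), other called list genes where 2 or fewer were called, named after their values were seen, and the 3 genes with the highest r to each of the 4. The study took atria and ventricle from the same mice, with separate mice within a group, and the labels do not give the mouse of a replicate number. Same-numbered atrial and ventricular libraries had r of 0.0407 to 0.2572 in deviations from group means, 11 of 18 over 0.1, and 16 of 18 were highest with their own number, so tissue comparisons were also fitted with these libraries paired. Library depth of 55031987 to 97091184 counts leaves ventricular Cited1 at 5 to 60 counts in several libraries. Gene positions came from a GENCODE annotation of GRCm38 of another release than the authors'. One gene list is not reported here.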

Additional observations from a re-analysis of the deposited data

How the results depend on the processing

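The values of single genes were recomputed under each alternative, and of 1174 values none changed sign after a call, 16 lost and 17 gained a call and 15 changed sign by more than their SE with no call. Sizes shrank on log2(TPM + 1), which understates low genes: ventricular Cited1 against +/–dox was 0.57 with MBNL1, 0.73 with MBNL2 and 0.46 with both vectors, and its atrial excess in +/–dox was 1.40. The replicate block gave 1.69 for ventricular Cited1 with MBNL2 against +/–dox, and 0.75 for ventricular Cited2 in +/–dox against +dox. The replicate block of same-numbered atria and ventricle called the tissue difference of Vxn with both vectors (0.72, edgeR adjusted p = 0.0328) and changed no other call. In that fit, atrial against ventricular Cited2 had an adjusted p below 0.05 and stayed under the fold cutoff in 4 cohorts. It was at -0.50 in +/–dox, -0.29 with MBNL1, -0.42 with MBNL2 and -0.50 with both (edgeR adjusted p = 0.000858, 0.0384, 0.0039 and 0.000935). Of the single-gene values the first block changed the call of 1, atrial Cited2 with MBNL2 against +/–dox (-0.63, edgeR adjusted p = 0.0328). DESeq2 added calls for ventricular Cited1 against +/–dox with MBNL1 (1.53, adjusted p = 0.0189) and both vectors (1.44, adjusted p = 0.035) and for the tissue difference of Vxn with both vectors (0.70, adjusted p = 0.0306). With no filter, ventricular Cited1 with MBNL2 was 1.72 (edgeR adjusted p = 0.0842). The library number as a term put atrial Cited4 with both vectors at -0.079 against +dox and -0.12 against +/–dox, and called atrial Cited2 with both vectors against +/–dox (-0.62). For Cited2 with MBNL2 against +/–dox, the atrial value was called by DESeq2 (-0.62) and in the fit of the compared libraries (-0.62), and the ventricular call was lost with no filter (-0.74), on log2(TPM + 0.1) (-0.54), on log2(TPM + 1) (-0.52) and in the fit of the compared libraries (-0.73). On log2(TPM + 0.1), atrial against ventricular Vxn was 0.60 in +/–dox and 0.78 with MBNL2, both called, and Cited2 with MBNL1 was 0.23 against -0.27 on counts, neither called. Leaving out 1 library gave ventricular Cited1 against +/–dox of 1.50 to 2.12 with MBNL2 and 0.54 to 1.92 with both vectors. It gave Cited2 against +dox of -0.063 to 0.47 in atrial –dox (lowest without –dox replicate 3) and 0.53 to 0.96 in ventricular +/–dox, and Cited4 in ventricular MBNL1 of -0.29 to 0.12 (highest without MBNL1 replicate 1). Against +/–dox, ventricular Cited2 with MBNL2 ran from -0.93 to -0.50, and Cited4 with MBNL1 from -0.29 to 0.15. Atrial against ventricular Cited2 in +/–dox ran from -0.71 to -0.29, the tissue difference of Vxn with both vectors from 0.59 to 0.88, and that of Cited2 in –dox from -0.32 to 0.24. Counts of called list genes were less stable: of 176 such counts, 46 moved by more than 1.5 times, or to or from 0. The alternatives for these counts include calls by the adjusted p alone. The number of hypoxia-inducible targets called in ventricular –dox ran from 2 to 9, and that of CITED partners in ventricular +/–dox from 0 to 6. The cause of these changes was not tested, and low counts limit ventricular Cited1.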
